A study of Homo sapiens with 8 samples.

Results

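Tight clusters of sites opened by the morphogens are described here. A member is an autosomal site of the authors' list of morphogen-opened sites that has at least 2 other sites of that list with centres within 25 kb and no site of the p63-closed list with its centre that near. The rule uses positions only. It was met by 404 of the 7753 autosomal opened sites, or 5.21% (exact 95% interval 4.73 to 5.73%). The 2 lists together hold 14191 sites, of which 8154 are on the first list (opened sites) and 6037 on the second (p63-closed sites). The authors named the second list as opened by morphogens and closed by p63, so by that name its sites opened too, and the contrasts below are between lists and not between sites that opened and sites that did not. The 401 opened sites of chromosome X were left out by the rule.

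The study profiled H9, an established line of human embryonic stem cells, by ATAC-seq, in which a transposase cuts and tags open DNA. Wild-type cells were collected on day 0 (2 samples) and on day 7 of differentiation with RA (retinoic acid, 1 uM) and BMP4 (5 ng/ml) into surface ectoderm (2 samples). Cells of genotype p63-/- were collected on day 7 of the same RA/BMP4 treatment (2 samples), and cells of genotype TetO:Tp63+/- at day 0 after 2 days of doxycycline at 2 ug/ml (2 samples). The labels attach the opened list to the wild-type samples of both days and the p63-closed list to the wild-type and p63-/- samples of day 7, and neither to the TetO:Tp63+/- line. How many clones stand behind each genotype is not given in the sources used here.

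Most open sites away from promoters are enhancers or other regulatory elements, which transcription factors hold free of nucleosomes. Retinoic acid acts through nuclear receptors bound to DNA, and BMP4 through SMAD proteins, so both signals end at such elements. Genes that define a cell's identity are often served by several elements side by side, as in locus control regions and super-enhancers. p63 is the transcription factor needed for the commitment of surface ectoderm to stratified epithelium.

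The lists give a position and a name for each site, and no signal, count or p-value. A site is thus either listed or not, depth is unknown, and the markers of surface ectoderm or of pluripotent cells could not be examined. They hold no value per sample, so no test between cultures could be made from them. No test over sites was made either, since neighbouring sites are not replicates. The exact 95% intervals below cover counting error only and treat sites as independent, which gathered sites are not. Coordinates are 1-based, on hg19, the build named in the submitters' processing notes. An hg19 genome or annotation was not used here, so the sites are named by position, without genes or base sequence.

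Of the 7753 autosomal opened sites, 511 (6.59%) had at least 2 others within 25 kb. A p63-closed site lay within 25 kb of 107 of these (20.9%, 17.5 to 24.7%), which were left out, and the remaining 404 are the members. The threshold cuts through a continuous range. Among sites with no p63-closed site nearby, the second nearest opened site lay 24.9 kb away for the last sites inside and 25.1 kb away for the first sites outside. The members nearest to a p63-closed site were 25.2, 25.4 and 25.7 kb from it, and the sites just left out 24.9, 24.9 and 24.8 kb. Most members only just met the count, as 320 of the 404 had 2 others within reach, 74 had 3, 9 had 4 and 1 had 6.

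The sites left out for a p63-closed neighbour were not spread evenly over the range of local density. A p63-closed site lay within 25 kb of 12.9% of opened sites that had no other opened site within 25 kb (732 of 5695; 12.0 to 13.8%). The share was 14.5% of sites with 1 other (224 of 1547; 12.8 to 16.3%), 20.0% with 2 others (80 of 400; 16.2 to 24.3%) and 20.4% with 3 others (19 of 93; 12.8 to 30.1%). It was 44.4% of the 18 sites with 4 or more others (21.5 to 69.2%), but 4 of those 8 sites lay in a single cluster on chromosome 11, at chr11:1974147-2012505, and without that cluster it was 36.4% of 11 sites. Opened sites with 2 others thus had a p63-closed site nearby in a larger share than sites with 0 others, and the rule for members removes those mixed places. Seen from the p63-closed list the shares had no such order. An opened site lay within 25 kb of 17.0% of p63-closed sites with 0 others of their own list (731 of 4305), 18.3% with 1 other (244 of 1335), 16.4% with 2 others (52 of 317) and 8.33% with 3 or more (4 of 48; 2.32 to 20.0%).

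**Figure D1:**
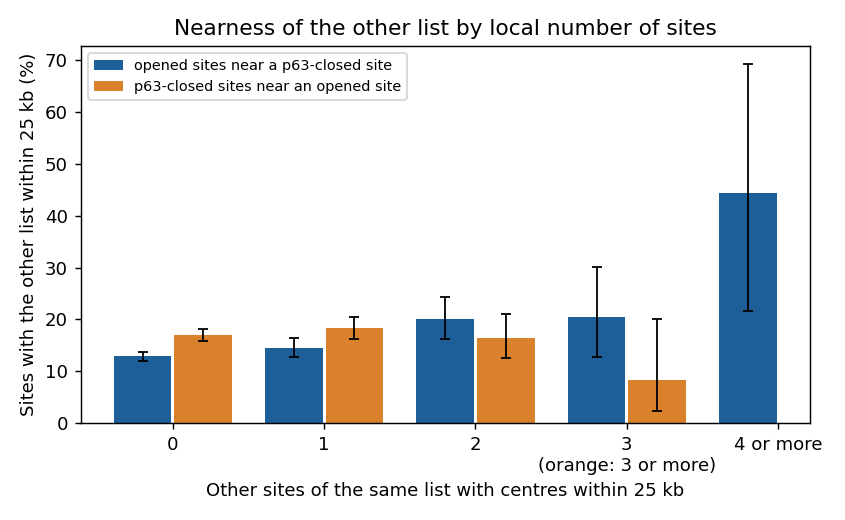
Percent of autosomal sites with a site of the other list within 25 kb (vertical axis) by the number of further sites of their own list within 25 kb (horizontal axis), for opened sites (blue) and p63-closed sites (orange); bars start at 0 and lines are exact 95% intervals. For opened sites the percentage is 12.9 with 0 others and 20.0 with 2 others, while for p63-closed sites it is 17.0 and 16.4.

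Applying the same rule with the lists exchanged gave nearly the same share of members. Of the 6005 autosomal p63-closed sites, 309 (5.15%, 4.60 to 5.73%) had at least 2 others of their list within 25 kb and no opened site, against 5.21% for the opened list. Before the condition on the other list the shares were 6.08% and 6.59%. The intervals of the 2 shares of members overlap almost entirely. The opened list is the denser, with 7753 against 6005 autosomal sites, and a denser list has more neighbours within 25 kb. Similar shares therefore do not show that the 2 lists were gathered to the same degree.

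The 404 members formed 165 clusters when members with centres within 25 kb of each other were joined. A further 153 opened sites lay within 25 kb of a member without being members themselves. Of these companions, 112 had only 1 other opened site within reach and 45 had a p63-closed site within 25 kb, with 4 sites in both counts. With companions included, the clusters held 557 sites. Clusters of 3 sites were the usual form, with 123 of 165, followed by 29 clusters of 4 sites, 8 of 5, 3 of 6 and 2 of 7. No companion was needed to complete 83 of the clusters. In 26 clusters a companion had a p63-closed site within 25 kb, and the other 139 clusters had none within that distance of any site.

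The span of a cluster is bounded by the rule, because neighbouring centres in it lie within 25 kb of each other. A short span is thus not a separate finding. The span between the first and last centre had a median of 24.2 kb (quartiles 15.6 and 33.4 kb), from 3.37 to 81.1 kb. It was under 10 kb in 14 clusters and over 50 kb in 9. The sites themselves covered a median of 20.9% of the cluster from end to end (quartiles 15.9 and 30.1%), or 5196 bp. Together the members covered 665 kb.

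**Figure D2:**
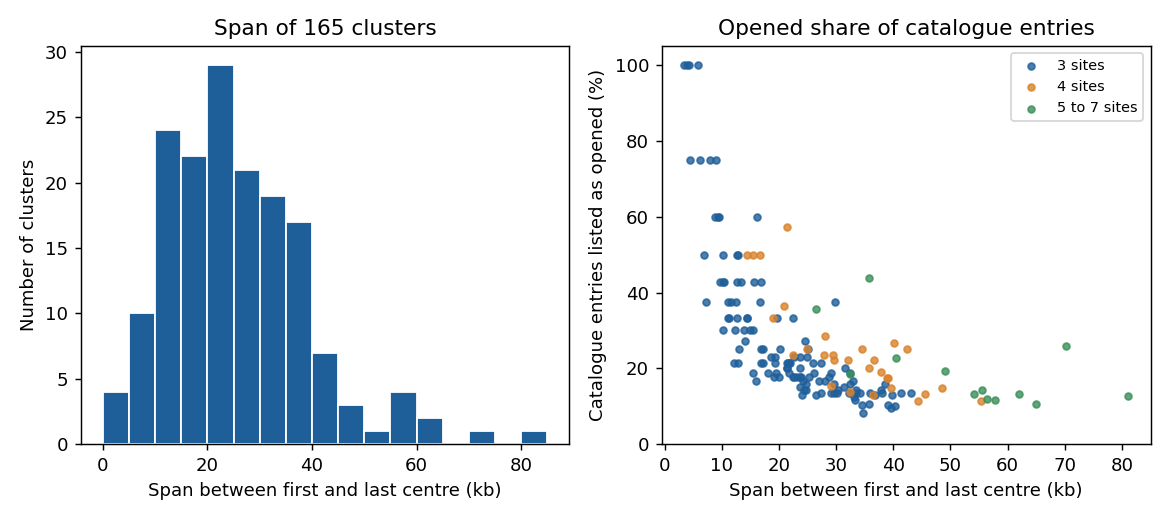
Left, number of the 165 clusters (vertical axis) by span between first and last centre in kb (horizontal axis, bins of 5 kb). Right, each point is a cluster, with its span in kb (horizontal axis) and the percent of catalogue entries between its first and last site that are listed as opened (vertical axis), coloured by its number of sites; the short clusters reach 100% and the median is 21.4%.

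Neighbouring members lay closer than the threshold required. Over 239 pairs of neighbouring members the distance between centres had a median of 7.55 kb (quartiles 4.11 and 12.4 kb), and it was at most 10 kb in 64.9% of pairs (155 of 239) and at most 5 kb in 31.8% (76). For the 924 other pairs of neighbouring autosomal opened sites within 25 kb the median was 11.5 kb, and 18.6% lay within 5 kb. The rule itself favours short distances in members, because 2 neighbours must fit into the same reach, so this difference is not a separate finding. For p63-closed members, chosen by the mirrored rule, the median was 7.22 kb over 180 pairs, and 38.3% lay within 5 kb. The gap between the edges of neighbouring members had a median of 6013 bp and was under 1 kb in 26 pairs (10.9%, 7.23 to 15.5%). Among p63-closed members such gaps made up 18.9% (34 of 180; 13.4 to 25.4%).

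Among the sites of the clusters, the numbers in the site names rose along each chromosome, but with large jumps. Between neighbouring clusters they went, for example, from 39260 to 557295 on chromosome 1 and from 1148294 to 1488797 on chromosome 10. They are taken here, as an assumption, to count entries in 1 catalogue from which both lists were drawn. On that reading they give the share of numbered entries inside a cluster that was listed. Whether an unlisted entry was accessible is not known. Along chromosomes 2 and 3 the numbers rose about as densely as inside clusters. They went from 319831 at position 12552897 to 468639 at 241841500 on chromosome 2. On chromosome 3 they went from 611931 at 13811616 to 732511 at 194039616. The shares of entries given below therefore cannot be read as shares of open regions. The median spacing of entries between neighbouring members, 1690 bp per entry, was near the median member width of 1504 bp. The opened share of entries was close to the share of length covered by sites, with medians of 21.4% and 20.9% over clusters. The 165 clusters enclosed 2784 catalogue entries from first to last site, of which 557 (20.0%) were opened, 0 were p63-closed and the others were on neither list. That no p63-closed entry lies inside a cluster is mostly fixed by the rule, which keeps such sites 25 kb away from every member. The median cluster held 16 entries (quartiles 10 and 22), and a median of 21.4% of them were opened. At least 50% of the entries were opened in 20 clusters. Neighbouring members had consecutive catalogue numbers in 41 of 239 pairs (17.2%, 12.6 to 22.5%), and a median of 3 unlisted entries stood between them. The spacing of entries had a median of 1690 bp per entry between neighbouring members and 1665 bp between the other opened neighbours within 25 kb, which include pairs with a companion, a difference smaller than the interval of the first median (1566 to 1799 bp).

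In 4 clusters every catalogue entry was an opened site. They were picked out after their values had been seen. On chromosome 2, at chr2:189838445-189844755, 3 members of 1388, 1633 and 2800 bp followed each other with gaps of 483 and 7 bp, and the sites covered 92.2% of the cluster, the highest share of the 165. On chromosome 19, at chr19:39349645-39354241, 3 members of 1222, 863 and 1223 bp were separated by 211 and 1078 bp. This was the shortest of all clusters, with 3.37 kb between the first and last centre. On chromosome 8, at chr8:22842700-22847670, 3 members of 700, 946 and 1259 bp had gaps of 887 and 1179 bp. The fourth, at chr5:167339490-167346563, was mixed at its edge, as 1 of its 3 sites was a member and the other 2 had a p63-closed site 23.1 and 20.9 kb away. The other clusters, 161 in number, held at least 1 unlisted entry between their sites.

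The clusters named here are the 10 with the most members, which include the 5 shortest clusters with at least 4 members. The one with the most members lay on chromosome 11 at chr11:57056089-57128566, with 7 members over 70.2 kb. From left to right its sites were 1242, 1570, 1567, 4089, 1745, 978 and 3301 bp wide. The site of 4089 bp, at chr11:57089366-57093454, near the middle of the cluster, was the widest of all 404 members. Gaps between its sites ran from 2478 to 17055 bp, and the 7 sites were 25.9% of the 27 catalogue entries enclosed. The nearest p63-closed site was 167 kb from its first member, and the next opened site outside it was 78.1 kb away.

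The cluster with 6 members lay on chromosome 6 at chr6:159126486-159177627 and spanned 49.1 kb. Its sites were 3152, 1633, 1177, 3228, 1962 and 842 bp wide, in 2 groups of 3 on either side of its largest gap, 15472 bp. The 6 sites were 19.4% of 31 entries, and the nearest p63-closed site was 123 kb away.

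The clusters with 5 members differed in tightness. At chr7:158594634-158623128 the 5 members lay within 26.5 kb, with gaps of 7599, 3140, 690 and 9033 bp, and were 35.7% of 14 entries. Its nearest p63-closed site was 389 kb away. At chr13:99562400-99625703 the 5 members and 1 companion were spread over 62.1 kb and were 13.3% of 45 entries. The sites there were 985 to 1834 bp wide, with a median of 1141 bp. At chr12:13266989-13350091 the 5 members and 1 companion reached 81.1 kb, the longest span of the 165, and were 12.8% of 47 entries. Its members were held together by a step of 24.9 kb, close to the threshold of the rule.

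The remaining 5 named clusters had 4 members each, no companion and spans from 14.5 to 20.9 kb. In 3 of them opened sites made up 50% of the 8 entries enclosed. At chr8:49434269-49450819 the sites formed 2 close pairs, with gaps of 850 and 249 bp inside the pairs and 8617 bp between them. At chr4:79472110-79491103 a site of 3221 bp stood 10482 bp from a run of 3 sites that were only 78 and 372 bp apart. At chr12:33032487-33050714 the sites were 2976, 1164, 925 and 2425 bp wide with gaps of 6164, 1856 and 2718 bp, and the nearest p63-closed site was 635 kb away. The other 2, at chr3:112866337-112886750 and chr10:97006160-97029151, were 33.3% and 36.4% opened by entries. They differed most in their distance to p63-closed chromatin, which was 730 kb on chromosome 3 and 26.7 kb on chromosome 10, just beyond the 25 kb of the rule.

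**Figure D3:**
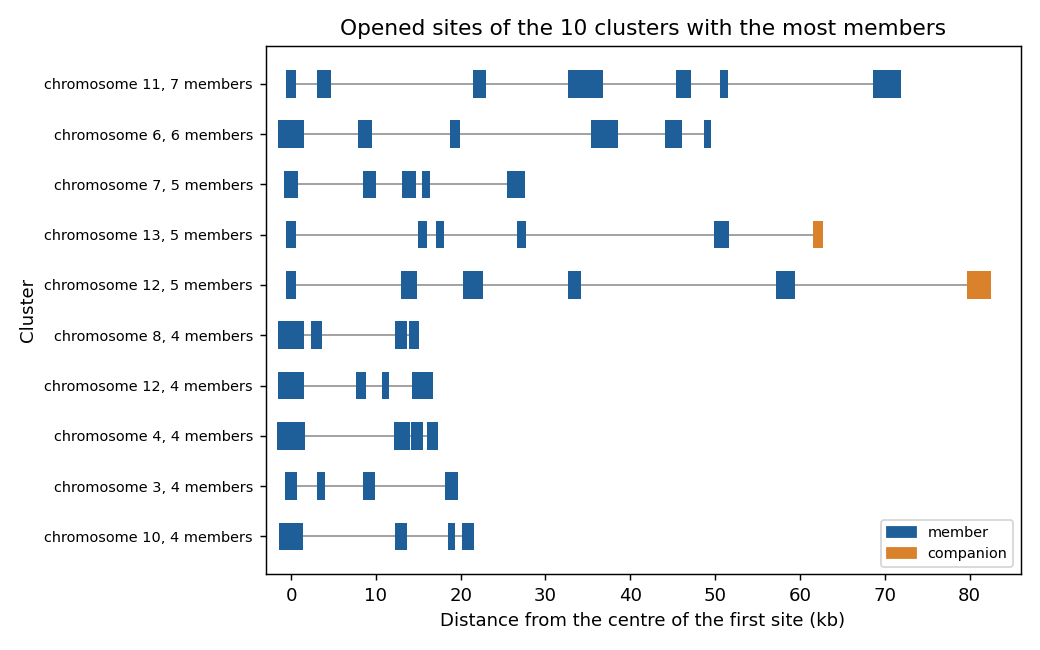
The 10 clusters with the most members, each drawn along a line, with the distance from the centre of its first site in kb (horizontal axis); boxes are sites to scale, blue for members and orange for companions. The cluster on chromosome 11 spans 70.2 kb with 7 members and a site of 4089 bp near its middle, while the cluster on chromosome 8 spans 14.5 kb in 2 close pairs.

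Further clusters stood out when the values were seen. At chr4:174428847-174453102 the 4 members were 2213, 3294, 2831 and 3532 bp wide, all above the upper quartile of members. They covered 48.9% of the cluster and were 57.1% of 7 entries. At chr11:1974147-2012505 there were 7 opened sites within 35.8 kb, as many as in the leading cluster, but only 3 were members. The other 4 had a p63-closed site 24.8, 15.2, 11.5 and 4.40 kb away. The member at chr11:1985214-1986948 had 6 other opened sites within 25 kb, the most of any member, and its nearest p63-closed site was 29.3 kb away.

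Members were slightly narrower than other opened sites. The median width was 1504 bp for members (95% interval of the median 1415 to 1570 bp; quartiles 1151 and 2063 bp) and 1608 bp for the 7349 other autosomal opened sites (1591 to 1623 bp; quartiles 1232 and 2063 bp). The lower quartile was lower in members while the upper quartiles met, so the difference lay among the narrow sites. The 107 opened sites with at least 2 others that were left out for a p63-closed neighbour had a median of 1522 bp. Its interval, 1298 to 1691 bp, holds both medians above, so a lower width is not shown to be particular to members. Sites with close neighbours were narrow on both sides of the rule. The 52 members with an edge gap under 1 kb had a median of 1345 bp and the 128 other opened sites with such a gap 1334 bp, against 1543 bp and 1613 bp for sites without. Companions, at the flanks, had a median of 1707 bp. Members of p63-closed clusters had a median of 1463 bp (1400 to 1583 bp), an interval that holds the 1531 bp of all autosomal p63-closed sites. The range of members, 479 to 4089 bp, held none of the broadest opened sites, which reached 12362 bp.

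Members were found on 21 of the 22 autosomes. Their share of the opened sites was highest on chromosome 16, with 19 of 187 (10.2%, 6.23 to 15.4%), and chromosome 18, with 23 of 281 (8.19%, 5.26 to 12.0%), against 5.21% over all autosomes. Chromosome 2 had the largest number, 40 members in 18 clusters, followed by chromosome 4 with 38 in 16 clusters and chromosome 8 with 37 in 14. As shares of their opened sites these were 5.85% (4.21 to 7.88%), 6.25% (4.46 to 8.48%) and 6.89% (4.90 to 9.37%). All 3 intervals hold the 5.21% over all autosomes. On chromosome 14 none of the 239 opened sites was a member, which allows a share of up to 1.26% by a limit of 3 counts and 1.53% by the exact interval. Chromosome 15 had 3 members among 160 sites (1.88%, 0.388 to 5.38%) and chromosome 21 had 1 among 115. Chromosome 14 did not lack opened sites, which stood at 2.81 per Mb against 2.80 over all autosomes, but only 3 of them had 2 others within 25 kb.

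The 2 kinds of cluster were set side by side by chromosome. On chromosome 16 the mirrored rule found 1 member among 117 p63-closed sites (0.855%), and on chromosome 14 it found 12 among 212 (5.66%), near the share of 5.15% over all autosomes. Chromosome 18 had the highest share of p63-closed members, 8.72%, and the second highest of opened members, 8.19%. Chromosome 12 had 8.54% and 6.88%. The interval held the autosomal share on 18 of the 22 autosomes, lay above it on chromosomes 16 and 18 and below it on chromosomes 14 and 21. These intervals treat members as independent, but the 19 members of chromosome 16 lay in 7 clusters and the 23 of chromosome 18 in 10. The lower bound on chromosome 18, 5.26%, was close to 5.21%, and chromosome 21 had 1 member. With 22 intervals read at once, the order among chromosomes is not resolved by these counts.

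**Figure D4:**
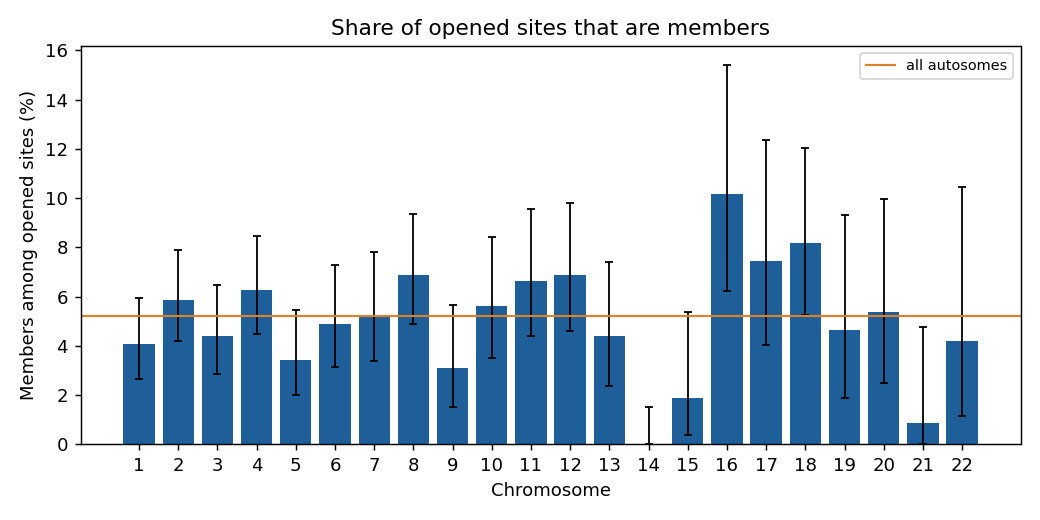
Percent of the opened sites of each autosome that are members (bars from 0, vertical axis) by chromosome (horizontal axis), with exact 95% intervals; the orange line marks the share over all autosomes, 5.21%. Chromosome 16 stands at 10.2% and chromosome 14 at 0.

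A part of the clusters lay near the ends of the long arms. The first 5 Mb of each chromosome were not counted in this way, so the 2 ends were not compared. Within 5 Mb of the last site listed on a chromosome lay 46 of 404 members (11.4%, 8.46 to 14.9%), 4.78% of other autosomal opened sites (351 of 7349; 4.30 to 5.29%) and 2.40% of p63-closed sites (144 of 6005). Of the p63-closed members, 1.29% (4 of 309) lay there. The 46 members belonged to 15 clusters on 10 chromosomes. Those were 3 clusters each on chromosomes 2 and 16, 2 on chromosome 7 and 1 each on chromosomes 3, 4, 6, 13, 17, 18 and 21. Counted by clusters the share was 9.09% (15 of 165; 5.18 to 14.6%). Without chromosome 16, which had 11 members at its end, it was 9.09% of members (35 of 385; 6.41 to 12.4%) against 4.57% of other opened sites. The next 5 Mb inward held 7 members (1.73%) and 3.97% of other opened sites, so the order was reversed there.

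On chromosome 16 the end clusters were chr16:86387820-86418324 and chr16:86939826-86963614, each of 4 members, and chr16:88829416-88840049 of 3 members. The nearest p63-closed site to a member of the third was 1312 kb away. On chromosome 7 the cluster of 5 members named above, chr7:158594634-158623128, began 0.417 Mb before the end of the last listed site, and a cluster of 5 sites with 3 members lay at chr7:154985690-155028063.

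Most clusters stood alone, and a minority had another nearby. The nearest other cluster lay at a median of 3601 kb (quartiles 928 and 9146 kb; 163 clusters with another on their chromosome). There were 20 stretches in which clusters followed each other at gaps of at most 1 Mb, and these held 45 of the 165 clusters (27.3%). Of the 20 stretches, 16 held a pair, 3 held 3 clusters and 1 held 4. The one with 4 lay on chromosome 2 from 46148955 to 47315016 and held 15 opened and 4 p63-closed sites in all, with 2 clusters at each of its ends. On chromosome 4, 3 clusters between 169595289 and 170582004 held 11 sites, and no p63-closed site lay among the 14 opened sites of the stretch. On chromosome 8, 3 clusters from 48292314 to 49450819 were part of 23 opened sites with 1 p63-closed site. On chromosome 18, 3 clusters from 19539858 to 20143541 were part of 13 opened sites with 1 p63-closed site; the middle cluster, at chr18:19744623-19774495, had 4 members of 2107, 3818, 1971 and 1440 bp.

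Some of these stretches were short. On chromosome 12, clusters of 3 and 5 sites shared 104 kb from 53267527 to 53371360, with 7 members, no p63-closed site between them and the nearest one 658 kb from a member. On chromosome 17, clusters of 3 sites each shared 68.2 kb from 46621734 to 46689965. The first of these had 1 member and 2 companions with a p63-closed site within 25 kb, and the second had 3 members at 61.7 to 78.9 kb from the nearest p63-closed site. All 6 listed sites of the stretch were opened sites. In 9 of the 20 stretches no p63-closed site lay between the first and last cluster.

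The chromatin around the members was compared with that around opened sites that also lacked a p63-closed site within 25 kb. The ring from 100 to 500 kb was used, because it lies outside the reach of the rule and of every cluster. Members had 4.04 ± 2.91 other opened sites there (mean ± SD over sites, n = 404), sites with 1 opened neighbour 3.19 ± 2.53 (n = 1323) and lone sites, with 0 opened neighbours within 25 kb, 2.68 ± 2.24 (n = 4963). The number of p63-closed sites in the same ring went slightly the other way, with 1.50 ± 1.71 for members, 1.60 ± 1.88 for sites with 1 neighbour and 1.73 ± 1.89 for lone sites. The p63-closed share of all listed sites in the ring was therefore 27.0% around members, 33.3% around sites with 1 neighbour and 39.3% around lone sites. These differences in the mean are small beside the spread between sites. The mean number of opened sites in the ring was higher around members than around lone sites on 16 of the 21 chromosomes with members. That of p63-closed sites was lower on 13 of 21. In the nearer ring, from 25 to 100 kb, p63-closed sites were not fewer around members. Their mean there was 0.369 ± 0.719 for members, 0.373 ± 0.752 for sites with 1 neighbour and 0.351 ± 0.704 for lone sites. With the middle member of each cluster it was 0.473 ± 0.831.

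With 1 member taken from each cluster the mean number of opened sites 100 to 500 kb away was 3.93 ± 2.73 (n = 165). Without the last 5 Mb of each chromosome the means were 4.09 around members and 2.68 around lone sites. The sites left out of the members for a p63-closed neighbour had both kinds around them, with 3.46 ± 2.76 opened and 2.17 ± 1.99 p63-closed sites in the ring (n = 107). Around p63-closed members there were 3.09 ± 2.37 p63-closed and 2.29 ± 2.00 opened sites (n = 309). Lone p63-closed sites had 2.55 ± 2.33 p63-closed and 2.21 ± 1.93 opened sites (n = 3574). On average, members of each kind of cluster thus had more sites of their own list around them than lone sites had.

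**Figure D5:**
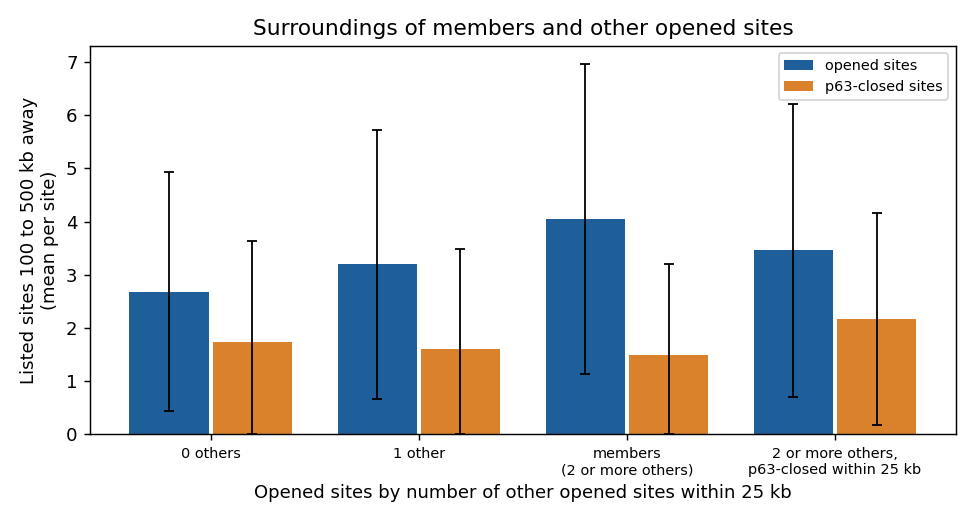
Mean number of listed sites with centres 100 to 500 kb away (vertical axis) around opened sites grouped by their opened and p63-closed neighbours within 25 kb (horizontal axis), for opened (blue) and p63-closed (orange) sites; lines are SD over sites, drawn no lower than 0. Opened sites average 2.68 around lone sites and 4.04 around members, with wide overlap between groups.

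The distance to p63-closed chromatin beyond 25 kb was similar for members and other opened sites, with overlapping intervals. The nearest p63-closed site lay at a median of 226 kb from a member (95% interval of the median 211 to 267 kb; quartiles 93.9 and 505 kb), and at 234 kb (224 to 242 kb) from the 6286 other opened sites with none within 25 kb. No p63-closed site lay within 1 Mb of 27 members (6.68%, 4.45 to 9.57%), against 8.72% of lone opened sites. A member of a tight p63-closed cluster lay within 1 Mb of 23 members (5.69%, 3.64 to 8.42%), against 7.94% of lone opened sites (7.20 to 8.73%). In 11 clusters every member was more than 1 Mb from a p63-closed site. The farthest of these was chr2:95925170-95983530, with 5 sites, 4 of them members, whose nearest p63-closed site was 2708 kb from the closest member. Next came chr11:48070497-48085413, with 3 members at 2451 kb or more, and chr7:56101176-56142666, with 3 members and 1 companion at 2280 kb from the closest member.

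Clusters were in general not isolated from other opened sites. The next opened site outside a cluster lay at a median of 62.2 kb from its nearer end (quartiles 35.9 and 135 kb), and beyond 100 kb in 56 of the 165. The most isolated were a cluster of 3 members at chr1:845263-857161, with the next opened site 1211 kb away, and one of 3 members at chr7:129989658-130014412, at 1209 kb. The first had a p63-closed site 65.3 kb and the second 36.4 kb from a member, so both were remote from other opened sites but not from p63-closed ones.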

How the data were processed

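The authors deposited 2 site lists. The series has 8 ATAC-seq samples, and the labels attach no list to the TetO:Tp63+/- line. Each has 4 columns (chromosome, start, end, numbered name) and no header. Their unit is a position in bp, and they hold no count or signal. Per the submitters' processing notes, the tools were Bowtie2, DESeq2, FastQC, MACS2 and SAMtools (no versions) and the builds hg19 and GRCh37. What each tool did, with which thresholds, is not given in the sources used here. A site missing from a list is not shown to be unchanged.

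Starts were converted to 1-based. Members were found by distance between centres (25 kb) and joined into clusters. The clusters named are the 10 with the most members (ties by shorter span) and the 5 shortest with at least 4 members. Members, lists and comparisons were chosen with earlier results of these data known. Intervals are exact (Clopper-Pearson, 95%) or, for medians, from order statistics; the limit for a share of 0 is 3 counts of the total. The rule was tested on simulated lists. Analyses used Python 3.11.15, numpy 2.4.6, pandas 2.3.3, scipy 1.17.1 and matplotlib 3.10.9. Genes and motifs need an hg19 genome and were not analysed here.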

Additional observations from a re-analysis of the deposited data

How the results depend on the processing

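No paired analysis was possible because each list holds positions only, without a value for any sample; replicates could not be left out in turn either. Of 23 values recomputed, each a result under 1 alternative setting, 15 stayed within 1.5 times a count, inside the interval of a value or within 1 SE of a mean, and 8 moved. The numbers of members and clusters follow the rule's settings. From 404 members in 165 clusters they went to 109 and 57 with a distance of 10 kb, to 744 and 272 with 50 kb, and to 84 and 36 with at least 3 other sites, which is what a stricter or looser rule does by construction. With 10 kb, 90 of the 109 were members under the main rule. Dropping the condition on p63-closed sites gave 511 members, distances between edges 420, joining sites within 1 kb 335 and joining consecutive catalogue numbers 303. The median width went from 1504 to 1399 bp with 10 kb (95% interval 1259 to 1609 bp), and the cause was not tested. The median span went from 24.2 to 19.7 kb in clusters with at least 3 members. That setting drops the 55 clusters with 1 member. Companions there that have only 1 other opened site within reach lie more than 25 kb apart by the rule. Per Mb in place of per opened site, chromosome 16 stood at 1.46 times the autosomal value in place of 1.95 times, and chromosomes 18, at 2.03 times, and 8, at 1.75 times, were then higher. Settings on ends, rings, spans and 1 member per cluster were added after the data had been seen. Settings for genes and motifs were not run. Depth is unknown.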
